A study of Mus musculus with 20 samples.

Results

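The genes described here are 33 genes of fatty acid activation and oxidation, listed by name as members of the pathway, with earlier results of these data known, out of 51826 genes counted. They comprise 4 long-chain acyl-CoA synthetases, 4 genes of the carnitine shuttle, 8 acyl-CoA dehydrogenases, 6 genes of the later mitochondrial steps, 2 mitochondrial enzymes for unsaturated acids, 3 genes of electron transfer and 6 peroxisomal genes. For the contrast between organelles, 21 of them were taken as mitochondrial and 6 as peroxisomal, and the other 6 (the synthetases, Cpt1c and Acad11) as neither. RNA was sequenced from renal myofibroblasts that grew out of minced kidneys of C57BL/6J mice, at passage 2. The 4 groups of 5 libraries were wild-type (WT) cells, WT cells given TGFβ1, WWP2-/- cells and WWP2-/- cells given TGFβ1, and WWP2 is a HECT-type E3 ubiquitin ligase. Both genotypes came from matings of heterozygotes. Treated cultures received TGFβ1 at 5 ng/µl for 72 hours as the study's text has it, which the sample labels do not state. The methods treat a data point in general as one mouse or the cells of one mouse, but the labels do not say so for these libraries, nor whether treated and untreated cells came from the same mice, so the P values measure the spread between these libraries only.

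A long-chain fatty acid is first joined to coenzyme A by an acyl-CoA synthetase, and is carried into the mitochondrion as an acylcarnitine by CPT1 at the outer membrane, the carnitine-acylcarnitine carrier SLC25A20 and CPT2 at the inner membrane. Inside, each turn of the β-oxidation spiral removes a pair of carbons as acetyl-CoA by a dehydrogenase, a hydratase, a second dehydrogenase and a thiolase, and the electrons of the first step pass through the electron transfer flavoprotein (ETF) to the respiratory chain. Peroxisomes run a parallel spiral with an acyl-CoA oxidase in the first step, mainly for very long-chain and branched acids. The kidney, above all the proximal tubule, relies on this pathway for energy, and kidney fibroblasts are studied for how they change fuel when they become profibrotic.

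The promoters of the 5 genes that passed the test between genotypes with TGFβ1 are shown first, because these are the genes on which the comparison turns. Each window holds 300 bases around the RefSeq start site (GRCm38.p6), most of them before it, 5′ to 3′ on the gene's own strand. Capitals mark AGGTCA (the repeat unit bound by nuclear receptors such as the PPARs), GGGCGG (the GC box) and CCAAT, in either orientation, and neighbouring matches run together.
Acsl4, higher in WWP2-/- cells, chrX:142390486-142390785, - strand: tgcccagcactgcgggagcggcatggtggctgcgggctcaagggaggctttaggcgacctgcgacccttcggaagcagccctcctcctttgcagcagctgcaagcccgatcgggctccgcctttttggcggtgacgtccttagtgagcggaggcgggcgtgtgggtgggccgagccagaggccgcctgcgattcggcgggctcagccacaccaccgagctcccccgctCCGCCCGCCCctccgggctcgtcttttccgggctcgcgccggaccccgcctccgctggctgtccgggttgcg
Cpt1a, lower in WWP2-/- cells, with its single AGGTCA (read on the other strand), chr19:3323051-3323350, + strand: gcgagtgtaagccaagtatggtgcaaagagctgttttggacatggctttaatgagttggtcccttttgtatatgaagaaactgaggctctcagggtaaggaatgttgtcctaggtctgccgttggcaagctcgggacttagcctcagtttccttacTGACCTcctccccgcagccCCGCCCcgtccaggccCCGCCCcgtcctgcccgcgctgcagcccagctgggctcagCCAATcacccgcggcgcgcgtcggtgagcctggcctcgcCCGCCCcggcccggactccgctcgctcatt
Acadsb, lower in WWP2-/- cells, with 5 GC boxes, chr7:131410351-131410650, + strand: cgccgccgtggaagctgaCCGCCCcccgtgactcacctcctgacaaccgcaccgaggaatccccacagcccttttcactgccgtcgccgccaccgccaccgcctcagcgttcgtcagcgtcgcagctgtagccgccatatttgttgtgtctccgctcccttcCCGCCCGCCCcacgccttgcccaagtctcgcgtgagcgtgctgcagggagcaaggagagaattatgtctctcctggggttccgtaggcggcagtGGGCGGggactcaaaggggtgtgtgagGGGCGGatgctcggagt
Etfa, lower in WWP2-/- cells, with CCAAT boxes only, chr9:55512194-55512493, - strand: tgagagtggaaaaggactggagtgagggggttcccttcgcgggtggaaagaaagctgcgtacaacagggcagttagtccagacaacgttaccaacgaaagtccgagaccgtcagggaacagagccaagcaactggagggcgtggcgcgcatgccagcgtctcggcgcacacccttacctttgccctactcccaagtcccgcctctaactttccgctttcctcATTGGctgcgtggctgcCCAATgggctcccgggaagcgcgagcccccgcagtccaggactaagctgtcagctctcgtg
Etfb, lower in WWP2-/- cells like its partner gene, chr7:43443822-43444121, + strand: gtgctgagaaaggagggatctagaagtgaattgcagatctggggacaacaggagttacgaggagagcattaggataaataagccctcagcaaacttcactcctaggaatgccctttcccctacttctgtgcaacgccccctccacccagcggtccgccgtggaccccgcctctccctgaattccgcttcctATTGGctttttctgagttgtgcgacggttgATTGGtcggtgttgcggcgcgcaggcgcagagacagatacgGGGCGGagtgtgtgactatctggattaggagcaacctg

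Windows were found for 29 of the 33 genes, 30 windows in all, against 32851 windows of all genes. AGGTCA lay in 5 of the 30 (16.7%, against 16.3% of all windows), of which Cpt1a was the only one among the 5 printed, with its match starting 94 bases before the start site on the opposite strand. GGGCGG lay in 24 of 30 windows (80.0%, against 35.7% of all) and CCAAT in 14 (46.7%, against 37.4%). None of the 30 held TCAAGGTCA, the extended site of the estrogen-related receptors (0.423% of all windows), the PPAR element of 2 AGGTCA with 1 base between them, even with 1 mismatch (0.554% of all), TATAAA (13.6% of all) or GTCTAGAC, a palindromic Smad site (0.213% of all). The printed windows thus differed among themselves, with 5 GC boxes in Acadsb, 3 in Cpt1a, 2 in Acsl4, 1 in Etfb and none in Etfa, which instead carried a pair of CCAAT boxes in opposite orientations. These matches are a description of letters and were not tested for binding.

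The libraries held 47520759 to 73063697 counts, of which the 33 genes took 0.177% to 0.241%. Wwp2 itself lay between 17.0 and 22.7 CPM (counts scaled to each library's normalised total) in all 10 WWP2-/- libraries and between 49.99 and 59.8 CPM in all 10 WT libraries. Xist, which is transcribed in female cells, was at 1 CPM or more in 4 of 5 WT, 4 of 5 treated WT, 2 of 5 WWP2-/- and 1 of 5 treated WWP2-/- libraries, so that sex and genotype are partly tied, and values within each class of Xist are given with the results below. Replicate 3 of the untreated and replicate 1 of the treated WWP2-/- libraries stood apart, with Acta2, the smooth muscle actin of myofibroblasts, at 38.9 and 50.4 CPM against at least 1016 CPM in the other 18 libraries. Macrophage markers summed to 57.2 to 3695 CPM and tubular markers (the 8 of 11 that were tested) to 16.8 to 627 CPM per library. Treated libraries of WT cells had 57.2 to 399 CPM of macrophage markers and those of WWP2-/- cells 69.4 to 3252 CPM, although 0 of the 8 macrophage and 0 of the 8 tested tubular markers passed the test between these groups with edgeR. Of the 10 fibroblast markers, Col1a1 and Col1a2 were called lower in treated WWP2-/- cells, and of the 5 endothelial markers Kdr and Tek, Tek also without TGFβ1. Of the 5 adipocyte markers only Adipoq passed the filter on low counts, at no more than 0.520 CPM in any library, and the others reached at most 0.0674 CPM. In bulk RNA, fewer cells of a type and less RNA per cell cannot be told apart.

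All 33 genes passed the filter on low counts. Levels between genes are compared per kilobase of exon, as CPM per kb averaged over the 20 libraries. Acadl, the long-chain acyl-CoA dehydrogenase of the mouse, was highest at 57.6 CPM per kb, followed by Etfa, the α subunit of ETF, at 40.0, Hsd17b4, the peroxisomal bifunctional enzyme for branched acids, at 37.4, and Hsd17b10, a mitochondrial hydroxyacyl-CoA dehydrogenase, at 33.5. The lowest were Acad10 at 1.21 and Ehhadh, the peroxisomal bifunctional enzyme for straight chains, at 1.27 CPM per kb. The peroxisomal genes thus spanned nearly the whole range, from Hsd17b4 to Ehhadh. Etfb, whose product pairs with that of Etfa in one flavoprotein, was counted at only 3.97 CPM per kb.

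The level of Etfb comes with an overlap in the annotation. Of its exonic bases, 58.2% also lie in exons of Gm45233 or Mir7051 on the same strand. Gm45233 received 0 or 1 count per library, Mir7051 0 to 2 and Etfb 104 to 509. How reads that fall in overlapping genes were counted is not given in the sources used here. The level of Etfb is therefore uncertain, and its comparisons rest on the reads that were assigned to it. Acadvl shares 42.9% of its exonic bases with Dvl2 on the opposite strand, and the strand setting of the counting is not given either. Acaa1a shares 12.6% of its 75-base words with other genes, chiefly its paralog Acaa1b, which was far lower, at 4917 counts over all libraries against 141487. Among the other called genes, Acsl4 and Acadsb shared no exonic base and no 75-base word with another gene, Cpt1a shared 0.0657% of its words and Etfa 0.212%.

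**Figure D1:**
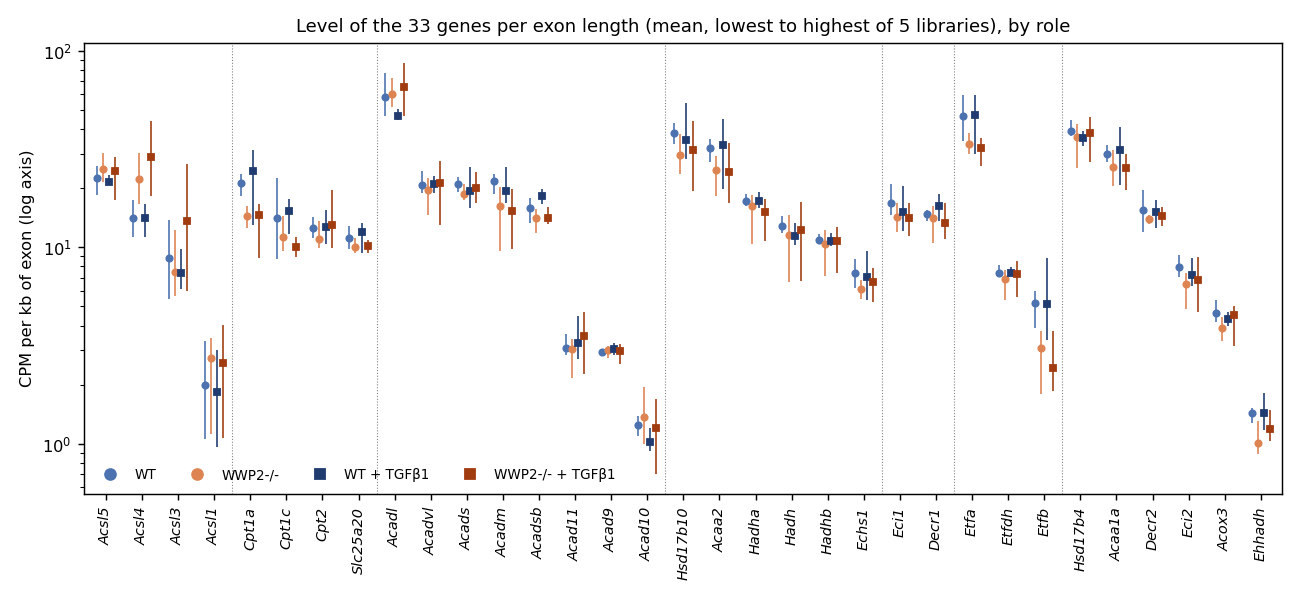
Level of the 33 genes in CPM per kb of exon (log axis), grouped by role and ordered by level within a role. Symbols are means of 5 libraries in each of the 4 groups and lines run from the lowest to the highest library; Acadl is at the top with a mean of 57.6 over all libraries and Acad10 at the bottom with 1.21.

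In cells given TGFβ1, 5 of the 33 genes differed between genotypes. Acsl4 rose in WWP2-/- cells, and Cpt1a, Acadsb, Etfa and Etfb fell. The genes that fell encode the entry step of the carnitine shuttle, a short/branched-chain dehydrogenase and both subunits of ETF, and the gene that rose encodes a synthetase that prefers arachidonic acid. All 4 genes that fell were mitochondrial (4 of 21), and 0 of the 6 peroxisomal genes passed, while 1 of 14 further peroxisomal genes outside the 33 was called lower. Where 6.07% of all genes were called, 0 of 6 does not set the peroxisomal genes apart. The median log2 fold changes were close, -0.097 for the 21 mitochondrial and -0.075 for the 6 peroxisomal genes. The test was edgeR's quasi-likelihood test with Benjamini-Hochberg adjustment over 20407 genes, at an adjusted P below 0.05. The 5 of 33 are 15.2%, where 6.07% of all genes tested were called in this comparison (2.1% higher and 3.96% lower). At an unadjusted P below 0.05 there were 11 genes (3 higher and 8 lower), where 24.7% of all genes were, and DESeq2 called 7, adding Cpt1c and Acadl, where it called 13.1% of all genes. The median log2 fold change of the 33 genes was -0.056, against 0.050 over all genes tested, with 14 genes above 0 and 19 below. Over all genes tested, 9150 of 20407 were below 0. In 3 genes the ranges of the genotypes were fully apart, Acsl4 higher and Cpt1c and Acadsb lower, where this held for 5.67% of all genes (2.59% higher and 3.08% lower). Of the 5 calls, that of Acsl4 was kept in all 10 fits that left out 1 treated library, that of Etfb in 6, Acadsb in 4, and Cpt1a and Etfa in 2 each. With the summed macrophage markers as a covariate, an alternative chosen after seeing the data, the genes called were Acsl3, Acsl4, Acadm and Etfb, and when only the treated groups were fitted the call was Cpt1c alone. In that order, these fits called 1058 and 569 of 20407 genes.

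Without TGFβ1, 0 of the 33 genes were called by edgeR, where 0.725% of all genes were called (0.103% higher and 0.622% lower). There were 6 genes at an unadjusted P below 0.05 (Acsl4 higher, and Cpt1a, Etfa, Etfb, Acox3 and Ehhadh lower), where 14.9% of all genes were, and DESeq2 called 1, Ehhadh, where it called 3.89% of all genes. Of the fold changes, 27 of 33 were below 0, where 8565 of all 20407 genes were. Their median was -0.16, against 0.076 over all genes tested. Without the 2 libraries low in Acta2, 9 of 33 were above 0 instead of 6, and the medians were -0.16 and 0.017. The 33 genes were measured in the same libraries, so they are not independent observations. Cpt1a and Etfb were lower in every WWP2-/- library than in any WT library, where 2.79% of all genes had such separate ranges in either direction (1.5% higher and 1.29% lower). Treated and untreated comparisons have no library in common, and their values for each gene are shown side by side in the plot of fold changes. Whether their cultures came from the same mice is not given, so the comparisons may not be independent.

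**Figure D2:**
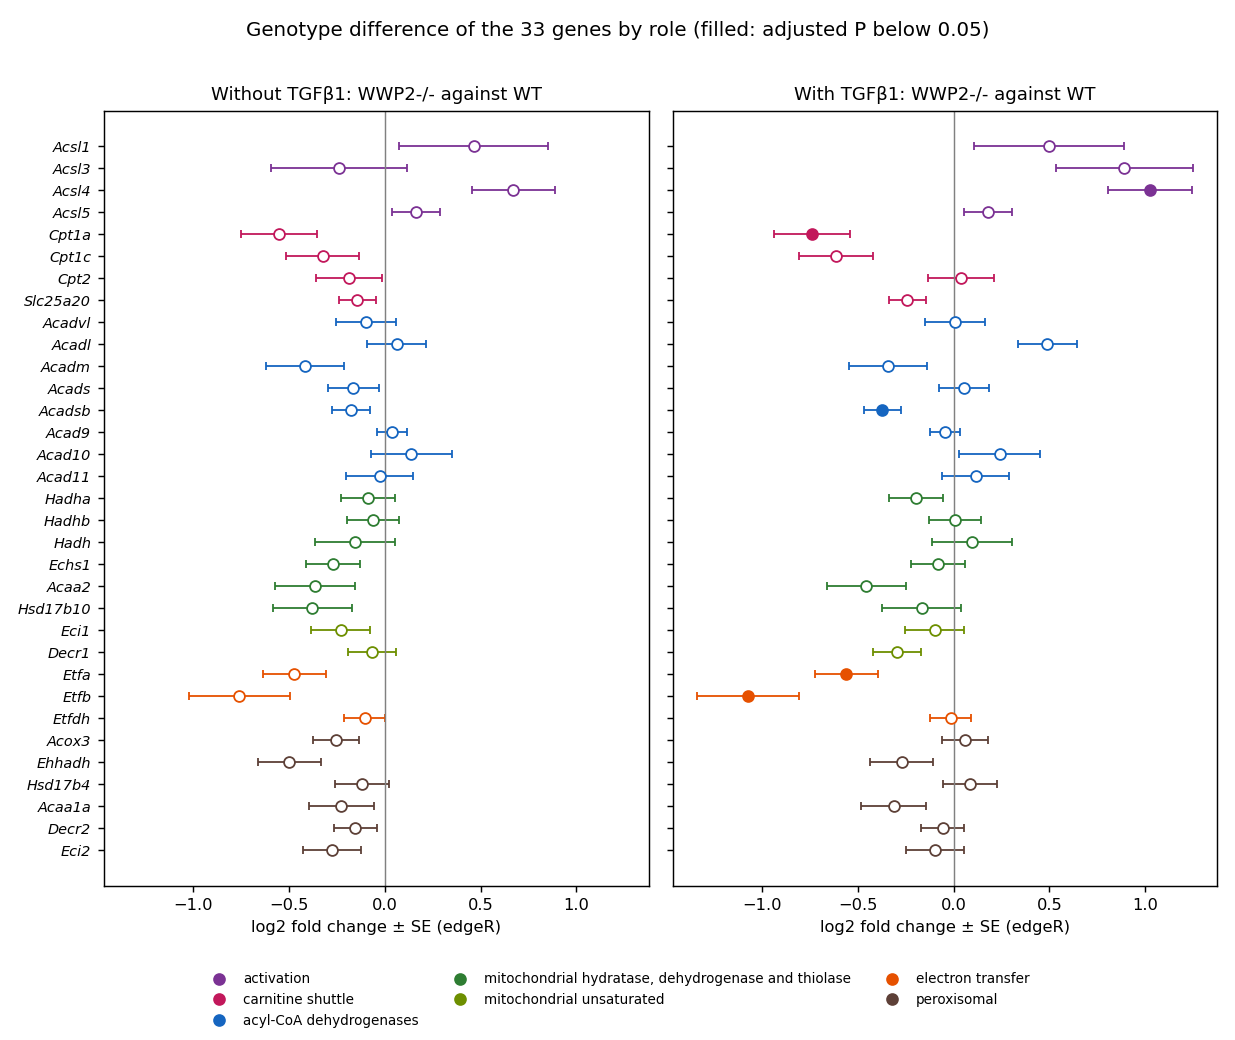
Difference between WWP2-/- and WT cells for each of the 33 genes, without TGFβ1 on the left and with it on the right. The x axis is the log2 fold change and bars are ± 1 SE from edgeR; filled symbols passed an adjusted P below 0.05, which 0 genes did without TGFβ1 and 5 with it, Acsl4 to the right of 0 and Cpt1a, Acadsb, Etfa and Etfb to the left.

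Of the 4 synthetases, 1 was called with TGFβ1, Acsl4, which rose. Acsl4, the isoform known for loading arachidonic acid into phospholipids, lies on the X chromosome (142317993 to 142390535, minus strand, GRCm38). Its level was 81.3, 70.6, 90.3, 61.0 and 77.9 CPM in treated WT libraries 1 to 5 and 198, 137, 238, 103 and 98.3 CPM in treated WWP2-/- libraries 1 to 5. Every treated WWP2-/- library was above every treated WT library, and replicates 1 and 3 were the highest. The means were 155 ± 61.0 and 76.2 ± 11.1 CPM (SD, n = 5), a log2 fold change of 1.02 ± 0.22 (SE) or 2.03-fold, with an adjusted P of 0.0138. The exact permutation test on the same values gave 0.00794 (two-sided), the smallest P that 5 against 5 allows.

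Without TGFβ1 the levels of Acsl4 were 75.9, 71.3, 61.2, 94.4 and 77.0 CPM in WT and 119, 90.3, 163, 113 and 120 CPM in WWP2-/- libraries. The groups overlapped through a single pair, WT replicate 4 at 94.4 and WWP2-/- replicate 2 at 90.3 CPM. The log2 fold change was 0.67 ± 0.22 with an adjusted P of 0.168. Among treated libraries with Xist, the one WWP2-/- library was at 198 CPM and the 4 WT libraries at 61.0 to 81.3 CPM, and among those without it the 4 WWP2-/- libraries were at 98.3 to 238 CPM and the one WT library at 90.3 CPM. The order of the genotypes was thus the same in both treated classes, each with a single library on one side. With Xist as a covariate Acsl4 was the only one of the 33 genes still called (log2 fold change 1.07, adjusted P 0.0333). That fit called 544 of 20407 genes. Untreated libraries with Xist were at 119 and 163 CPM in WWP2-/- and 61.2 to 77.0 CPM in WT. Without Xist they were at 90.3 to 120 CPM in WWP2-/- and 94.4 CPM in the one WT library, so the genotypes were not separated.

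The other synthetases varied more between libraries. Acsl3, found at the endoplasmic reticulum and lipid droplets, had 27.8, 26.7, 33.7, 42.7 and 29.6 CPM in treated WT and 81.1, 47.6, 115, 27.1 and 26.2 CPM in treated WWP2-/- libraries. Replicates 1, 2 and 3 of the WWP2-/- cells lay above all WT libraries and replicates 4 and 5 within or below them, and the log2 fold change was 0.89 ± 0.36 (adjusted P 0.134). Its untreated log2 fold change was -0.24 ± 0.35 (adjusted P 0.773 by edgeR). Acsl1, the main isoform of liver and fat, was at 10.1 to 31.4 CPM in treated WT and 11.2 to 42.2 CPM in treated WWP2-/- libraries, with a log2 fold change of 0.50 ± 0.39 (adjusted P 0.458) that ran from -0.33 to 0.75 over the alternatives and left-out libraries. Its lowest values among WWP2-/- cells, 11.8 and 11.2 CPM, were those of the 2 libraries low in Acta2. Acsl5, found in the intestine and liver, was the steadiest, with a log2 fold change of 0.18 ± 0.13 (adjusted P 0.404).

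Taken per kb, the share of Acsl4 among the counts of these 4 synthetases was 25.4% to 33.4% in WT, 26.4% to 34.3% in treated WT, 29.8% to 46.3% in WWP2-/- and 32.2% to 49.2% in treated WWP2-/- libraries. Acsl5 held the largest average share in 3 of the groups, 47.3% in WT, 48.2% in treated WT and 43.8% in WWP2-/- cells. In treated WWP2-/- cells the average shares of Acsl4 and Acsl5 were 40.1% ± 6.89 and 37.4% ± 12.8 (SD, n = 5), a difference smaller than their spread.

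In the carnitine shuttle 1 of 4 genes was called, Cpt1a, which fell. Cpt1a (chromosome 19, 3322334 to 3385733, plus strand, GRCm38) encodes the liver-type carnitine palmitoyltransferase, the rate-limiting and malonyl-CoA-sensitive step of entry. With TGFβ1 it was at 196, 227, 99.2, 167 and 240 CPM in WT and 122, 113, 67.2, 127 and 127 CPM in WWP2-/- libraries. WT replicate 3, at 99.2 CPM, lay among the WWP2-/- libraries, while the other 4 WT libraries were above all of them. The means were 186 ± 56.2 and 111 ± 25.3 CPM (SD, n = 5), and the log2 fold change was -0.74 ± 0.20 (0.599-fold, adjusted P 0.0350).

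WT replicate 3 is also the one treated WT library without Xist. Among treated libraries without Xist, Cpt1a was at 67.2 to 127 CPM in 4 WWP2-/- libraries and 99.2 CPM in that library, so the genotypes were not separated, and among those with Xist it was at 167 to 240 CPM in 4 WT libraries and 122 CPM in 1 WWP2-/- library. With Xist as a covariate the log2 fold change was -0.47 and the adjusted P 0.191. Sex and genotype cannot be told apart for Cpt1a with these treated libraries. Without TGFβ1 the levels were 165, 151, 180, 140 and 177 CPM in WT and 125, 121, 110, 95.6 and 104 CPM in WWP2-/- libraries. Here every WWP2-/- library was below every WT library, also within each class of Xist (110 and 125 against 151 to 180 CPM with it, and 95.6 to 121 against 140 CPM without it), with a log2 fold change of -0.55 ± 0.20 (adjusted P 0.214 by edgeR).

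Cpt1c, a brain-type paralog of the endoplasmic reticulum with little transferase activity, was at 79.3, 91.4, 65.7, 99.0 and 95.9 CPM in treated WT and 63.6, 52.6, 63.4, 49.9 and 52.5 CPM in treated WWP2-/- libraries. The groups did not overlap, but the gap between WT replicate 3 and WWP2-/- replicate 1 was small, and the log2 fold change of -0.61 ± 0.19 had an adjusted P of 0.0612. Slc25a20, the carrier, had a log2 fold change of -0.24 ± 0.10 (adjusted P 0.135), with WT replicate 3 at 45.3 CPM and the other WT libraries at 55.2 to 64.5 CPM against 45.4 to 53.0 CPM in WWP2-/- libraries. Cpt2, the inner-membrane transferase, was at 30.3 ± 4.43 and 31.2 ± 10.3 CPM (SD, n = 5). Its log2 fold change was 0.040 ± 0.17. Untreated, all 4 were below 0, from -0.55 for Cpt1a to -0.14 for Slc25a20. Without treated WT replicate 3, 8 of the 33 genes were called in treated cells, the 5 above and Cpt1c, Slc25a20 and Acaa2. That fit called 2702 of 20407 genes, against 1238 in the fit of all libraries.

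**Figure D3:**
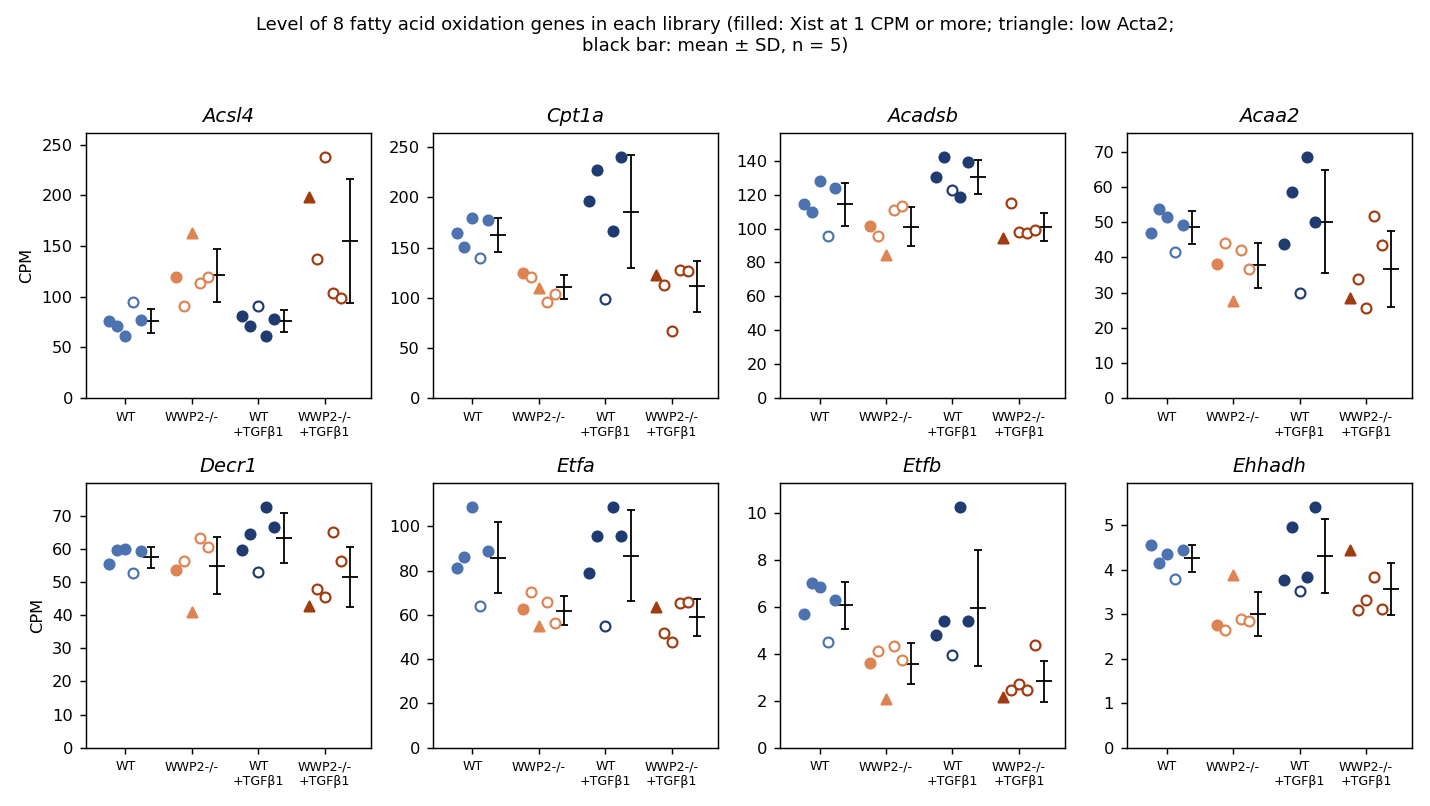
CPM of 8 of the genes in each library of the 4 groups, with the mean ± SD of 5 libraries as a black bar. Filled symbols have Xist at 1 CPM or more and triangles are the 2 libraries low in Acta2; in the Acsl4 panel all 5 treated WWP2-/- libraries (98.3 to 238 CPM) are above the treated WT libraries (61.0 to 90.3 CPM), and in the Cpt1a and Etfa panels the one open treated WT symbol (99.2 and 55.0 CPM) sits among the WWP2-/- libraries.

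Among the 8 acyl-CoA dehydrogenases, 1 was called with TGFβ1. Acadsb (chromosome 7, 131410601 to 131448944, plus strand, GRCm38) encodes the short/branched-chain enzyme, which also acts in isoleucine breakdown. It was at 130, 142, 123, 119 and 139 CPM in treated WT and 94.2, 115, 98.0, 97.7 and 99.5 CPM in treated WWP2-/- libraries. The groups did not overlap, the closest pair being WT replicate 4 at 119 and WWP2-/- replicate 2 at 115 CPM, and the means were 131 ± 10.1 and 101 ± 8.22 CPM (SD, n = 5). The log2 fold change was -0.37 ± 0.098 (0.773-fold, adjusted P 0.0335). The order held among the treated libraries without Xist (97.7 to 115 CPM in WWP2-/- against 123 CPM in WT) and with it (94.2 against 119 to 142 CPM), and with Xist as a covariate the fold change stayed at -0.37 with an adjusted P of 0.0750. Untreated, it was -0.18 ± 0.098 (adjusted P 0.404). Untreated libraries with Xist had 84.5 and 101 CPM in WWP2-/- and 110 to 128 CPM in WT. Without Xist the order turned, with 95.7 to 113 CPM in WWP2-/- and 95.5 CPM in the one WT library.

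Acadl stood on the other side. It was at 91.4, 88.98, 91.4, 101 and 91.6 CPM in treated WT and 114, 116, 93.5, 173 and 156 CPM in treated WWP2-/- libraries. All but WWP2-/- replicate 3 were above the WT libraries. The 2 highest, replicates 4 and 5, also had the most macrophage markers of that group (3252 and 2367 CPM). They had the most tubular markers of it as well (399 and 471 CPM). The log2 fold change was 0.49 ± 0.16 (adjusted P 0.0644). Acadm, the medium-chain enzyme, was at 76.2 ± 14.2 CPM in treated WT and 60.1 ± 18.2 CPM in treated WWP2-/- cells (SD, n = 5), a log2 fold change of -0.34 ± 0.20 (adjusted P 0.312). In WWP2-/- cells its lowest values were 37.5 and 38.5 CPM in the libraries low in Acta2.

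The other 5 dehydrogenases had treated log2 fold changes from -0.044 for Acad9, which is also an assembly factor of respiratory complex I, to 0.24 for Acad10, and adjusted P of 0.511 to 0.986. Acadvl, the very long-chain enzyme that takes the first turn of the spiral, was at 56.7 ± 4.21 CPM in treated WT and 57.0 ± 14.7 CPM in treated WWP2-/- cells. Acads, the short-chain enzyme, was at 43.7 ± 8.55 and 45.4 ± 8.37 CPM. Acad9 was the steadiest of the 33 genes, with 1.27-fold between its lowest and highest library.

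In the later mitochondrial steps, 0 of 6 genes were called with TGFβ1 and 1 had an unadjusted P below 0.05. Acaa2, the mitochondrial 3-ketoacyl-CoA thiolase, was at 43.8, 58.5, 29.9, 68.5 and 50.2 CPM in treated WT and 28.4, 33.8, 25.6, 51.7 and 43.5 CPM in treated WWP2-/- libraries. WT replicate 3 was again the lowest of its group and lay among the WWP2-/- libraries, and the log2 fold change was -0.46 ± 0.21 (adjusted P 0.181 by edgeR). Hadha and Hadhb, the subunits of the trifunctional protein of the inner membrane, are transcribed from neighbouring genes on chromosome 5 in opposite directions. Hadha had a treated log2 fold change of -0.19 ± 0.14 and Hadhb of 0.0056 ± 0.14. Hadh, the short-chain hydroxyacyl-CoA dehydrogenase, Echs1, the crotonase, and Hsd17b10 had fold changes of 0.098, -0.082 and -0.17, with adjusted P of 0.665 to 0.820. Untreated, all 6 were below 0, from -0.063 for Hadhb to -0.38 for Hsd17b10.

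Both libraries low in Acta2 were the lowest of their groups in Hadha, Hadhb and Hadh, and the highest in Echs1. Hadha was at 90.9 and 94.5 CPM in them against 129 to 162 CPM in the other 8 WWP2-/- libraries, and Hadh at 33.2 and 33.5 against 47.7 to 84.7 CPM. Over the 33 genes, both of these libraries were the lowest of their group in 15 genes and the highest in 4 (Cpt1c, Acad10, Echs1 and Ehhadh). Without them, 7 of the 33 genes were called with TGFβ1, all 5 named above and Cpt1c and Acadl. That fit called 3454 of 20407 genes, against 1238 in the fit of all libraries.

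Of the mitochondrial enzymes for unsaturated acids, Decr1, the 2,4-dienoyl-CoA reductase, had a log2 fold change of -0.29 ± 0.13 with TGFβ1 (adjusted P 0.158 by edgeR). Its levels were 59.6, 64.6, 52.9, 72.7 and 66.5 CPM in treated WT and 42.8, 48.02, 45.4, 65.2 and 56.4 CPM in treated WWP2-/- libraries, with 3 of the WWP2-/- libraries below all WT libraries. Eci1, the enoyl-CoA isomerase, had -0.097 ± 0.15. Neither was called.

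Of the 3 genes of electron transfer, Etfa and Etfb were called lower. With Xist as a covariate neither was called, and Etfa, close to the threshold, was called in 3 of 10 alternatives. ETF takes the electrons from the acyl-CoA dehydrogenases and hands them to ETF dehydrogenase in the inner membrane. Etfa (chromosome 9, 55454508 to 55512243, minus strand, GRCm38) was at 78.7, 95.7, 55.0, 109 and 95.9 CPM in treated WT and 63.6, 51.7, 47.9, 65.6 and 65.8 CPM in treated WWP2-/- libraries. As with Cpt1a, the 4 WT libraries with Xist were above all WWP2-/- libraries and WT replicate 3 was among them. The means were 86.8 ± 20.8 and 58.9 ± 8.46 CPM (SD, n = 5), and the log2 fold change was -0.56 ± 0.16 (0.679-fold, adjusted P 0.0492). Among the treated libraries without Xist, WT was at 55.0 CPM and WWP2-/- at 47.9 to 65.8 CPM, and with Xist as a covariate the fold change was -0.38 with an adjusted P of 0.221.

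Etfb (chromosome 7, 43444083 to 43457800, plus strand, GRCm38) was at 4.80, 5.39, 3.95, 10.3 and 5.41 CPM in treated WT and 2.17, 2.46, 2.72, 2.46 and 4.37 CPM in treated WWP2-/- libraries. Only WWP2-/- replicate 5 reached into the range of the WT libraries, and WT replicate 4 was well above its group. The means were 5.97 ± 2.48 and 2.84 ± 0.877 CPM (SD, n = 5), with a log2 fold change of -1.07 ± 0.27 (0.476-fold, adjusted P 0.0257). Among treated libraries with Xist it was at 2.17 CPM in the WWP2-/- library and 4.80 to 10.3 CPM in WT, and among those without it at 2.46 to 4.37 CPM in WWP2-/- and 3.95 CPM in the WT library, and with Xist as a covariate the adjusted P was 0.0628. Without TGFβ1 the levels were 5.72, 7.02, 6.85, 4.53 and 6.30 CPM in WT and 3.62, 4.15, 2.09, 4.35 and 3.74 CPM in WWP2-/- libraries, which did not overlap (log2 fold change -0.76 ± 0.26, adjusted P 0.199).

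Etfa without TGFβ1 had a log2 fold change of -0.47 ± 0.16 (adjusted P 0.199), with 81.2, 86.3, 109, 64.2 and 88.9 CPM in WT against 62.5, 70.2, 55.0, 65.7 and 56.2 CPM in WWP2-/- libraries. The WT library without Xist, replicate 4, was the one that overlapped. The ratio of Etfb to Etfa counts was 0.0630 to 0.0814 in WT, 0.0563 to 0.0945 in treated WT, 0.0380 to 0.0665 in WWP2-/- and 0.0342 to 0.0664 in treated WWP2-/- libraries. The overlap with Gm45233 and Mir7051 applies to each of these ratios. Etfdh, the third gene of the step, was at 55.8 ± 2.35 CPM in treated WT and 55.2 ± 8.77 CPM in treated WWP2-/- cells, a log2 fold change of -0.016 ± 0.11.

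None of the 6 peroxisomal genes was called by edgeR in either comparison of genotypes, where 6.07% of all genes were with TGFβ1 and 0.725% without it. With TGFβ1 none had an unadjusted P below 0.05, where 24.7% of all genes did. Their treated log2 fold changes ran from -0.31 for Acaa1a, the peroxisomal thiolase, to 0.086 for Hsd17b4. Acox3, an acyl-CoA oxidase for branched acids, had 0.060, Decr2 -0.056, Eci2 -0.095 and Ehhadh -0.27. Untreated, all 6 lay below 0, from -0.12 for Hsd17b4 to -0.50 for Ehhadh. Ehhadh was at 4.56, 4.14, 4.35, 3.79 and 4.44 CPM in WT and 2.77, 2.65, 3.89, 2.90 and 2.85 CPM in WWP2-/- libraries. Only replicate 3 of the WWP2-/- cells, one of the libraries low in Acta2, reached the WT range, by exceeding WT replicate 4. The log2 fold change was -0.50 ± 0.16, with an adjusted P of 0.174 by edgeR and 0.0129 by DESeq2, and 0.0448 by edgeR without the 2 libraries low in Acta2.

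As a description of each organelle, log2 CPM values were averaged over the 21 mitochondrial and the 6 peroxisomal genes in each library, without a test. A pseudocount of about 2 counts was added before the logarithm, so genes with low counts weigh as much as the others. Without TGFβ1, the peroxisomal mean was 5.38 to 5.59 in WT and 5.14 to 5.30 in WWP2-/- libraries, so every WWP2-/- library was below every WT library. The mitochondrial mean was 5.61 to 5.80 in WT and 5.22 to 5.65 in WWP2-/- libraries, with WWP2-/- replicate 2 inside the WT range. With TGFβ1 both organelles overlapped between genotypes, at 5.21 to 5.53 against 5.16 to 5.49 for the peroxisomal and 5.39 to 5.86 against 5.23 to 5.68 for the mitochondrial genes. In treated WWP2-/- cells replicates 4 and 5 were high on both axes and replicates 1, 2 and 3 low. Replicates 4 and 5 also carried the most macrophage markers and the most tubular markers of their group (399 and 471 CPM of tubular markers). The part of these cell types in the levels was not tested.

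The organelle means are not divided by exon length, so they do not compare the level of one organelle's genes with the other's. As computed, the mitochondrial mean exceeded the peroxisomal mean in all 20 libraries. The difference between them was 0.23 ± 0.029 in WT, 0.24 ± 0.060 in treated WT, 0.27 ± 0.11 in WWP2-/- and 0.15 ± 0.095 in treated WWP2-/- cells (SD, n = 5). From treated WT to treated WWP2-/- cells it changed by -0.085, and from WT to WWP2-/- cells by 0.037, both within the larger SD of the groups compared. Taking the median over each list instead, the change between treated genotypes was -0.26. The spread of that measure between libraries is not given here, so this change cannot be set against the SDs above. As summed CPM per kb, the mitochondrial genes exceeded the peroxisomal genes by a ratio of 4.02 ± 0.069 in WT, 4.01 ± 0.16 in treated WT, 3.90 ± 0.20 in WWP2-/- and 3.82 ± 0.22 in treated WWP2-/- cells.

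**Figure D4:**
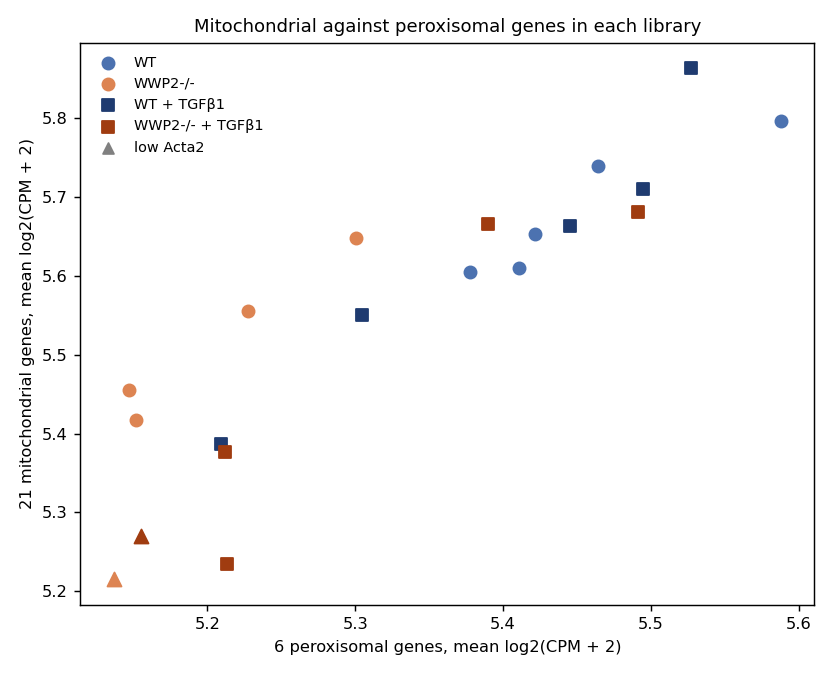
Mean log2 CPM of the 21 mitochondrial genes (y axis) against that of the 6 peroxisomal genes (x axis) in each of the 20 libraries. The 2 added in the axis labels is a pseudocount of about 2 counts, not 2 CPM. Circles are untreated, squares with TGFβ1 and triangles the 2 libraries low in Acta2. The 5 untreated WWP2-/- libraries lie at 5.14 to 5.30 on the x axis, left of the 5 untreated WT libraries at 5.38 to 5.59, whereas the treated libraries of the genotypes intermingle.

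None of the 33 genes was called for the effect of TGFβ1 in either genotype. In WT cells, 0 of 33 were called by edgeR and 0 by DESeq2, where edgeR called 0% and DESeq2 0.132% of all genes, and 1 of the 33 had an unadjusted P below 0.05, where 6.85% of all genes did. No gene of the 33 had separate ranges, where 1.35% of all genes did (0.588% higher and 0.76% lower). The 1 gene was Acadl, with a log2 fold change of -0.33 ± 0.15 (adjusted P 0.725), at 105, 118, 112, 154 and 93.1 CPM in WT and 91.4, 88.98, 91.4, 101 and 91.6 CPM in treated WT libraries. The WT values were the more scattered. The highest, replicate 4 at 154 CPM, was the WT library with the most macrophage markers (3695 CPM) and the most tubular markers (349 CPM). Over the 33 genes the fold changes ran from -0.33 to 0.19 with a median of -0.025, against 0.016 over all genes tested. The treated and untreated WT libraries are the same ones that enter the comparisons between genotypes above, so these values are not independent of those.

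In WWP2-/- cells, 0 of 33 genes were called by edgeR and 0 by DESeq2, where edgeR called 0% and DESeq2 0.255% of all genes, and 1 had an unadjusted P below 0.05, where 3.49% of all genes did. It was Acsl3, with a log2 fold change of 0.86 ± 0.36 (adjusted P 1). No gene of the 33 had separate ranges, where 0.377% of all genes did (0.167% higher and 0.211% lower). The fold changes ran from -0.34 for Etfb to 0.86 for Acsl3, with a median of 0.044, against 0.0010 over all genes tested. For the interaction of genotype and treatment, 0 of 33 genes were called by edgeR and 0 by DESeq2, where edgeR called 0% and DESeq2 0.049% of all genes. Only Acsl3 had an unadjusted P below 0.05, where 6.98% of all genes did, with an interaction of 1.13 ± 0.50 (adjusted P 0.669). A difference between the genotype effects with and without TGFβ1 was thus not shown for any of the 33 genes, including the 5 called with TGFβ1 and not without it. For Acsl4 the interaction was 0.35 ± 0.31 (adjusted P 0.917), and for Cpt1a -0.19 ± 0.28 (adjusted P 0.982).

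Around the pathway, 62 further genes of uptake, lipid droplets, other peroxisomal and mitochondrial steps, regulators and PPAR targets were listed, of which 60 were tested. With TGFβ1, 2 rose in WWP2-/- cells, Plin2 and Pnpla2, and 3 fell, where 2.1% of all genes were called higher and 3.96% lower, and the median log2 fold change of the 60 was 0.0094. Plin2, a coat protein of lipid droplets, was at 145, 121, 237, 136 and 121 CPM in treated WT and 455, 310, 396, 574 and 440 CPM in treated WWP2-/- libraries, with no overlap (log2 fold change 1.51 ± 0.32, adjusted P 0.0137). Pnpla2, the adipose triglyceride lipase that opens lipolysis, was at 59.0 ± 9.33 in treated WT and 92.4 ± 14.9 CPM in treated WWP2-/- cells (SD, n = 5), also without overlap (0.65 ± 0.17, adjusted P 0.0306). Both belong to the 7 genes of droplets and lipolysis, of which the other 5 were not called.

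The genes that fell included Ivd, a mitochondrial dehydrogenase of leucine breakdown (-0.40 ± 0.091, adjusted P 0.0162), and Slc27a3, an acyl-CoA synthetase of the fatty acid transport family (-1.91 ± 0.51, adjusted P 0.0353). Ivd lay at 55.2 to 62.2 CPM in treated WT and 38.2 to 47.0 CPM in treated WWP2-/- libraries, without overlap. Slc27a3 was also the only one of the 60 called without TGFβ1 (-2.31 ± 0.52, adjusted P 0.0475), at 7.68 to 69.8 CPM in WT and 3.04 to 9.13 CPM in WWP2-/- libraries.

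Cd36, the fatty acid translocase, was at 5.73 ± 4.66 CPM in treated WT and 45.6 ± 46.8 CPM in treated WWP2-/- cells (2.99 ± 1.03, adjusted P 0.0854). The treated WWP2-/- libraries ran from 2.46 to 98.1 CPM. Without TGFβ1 the order was the other way, at 54.3 ± 40.3 CPM in WT and 35.3 ± 41.2 CPM in WWP2-/- cells.

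None of the 13 regulators was called in either comparison of genotypes by edgeR, where 6.07% of all genes were with TGFβ1 and 0.725% without it. At an unadjusted P below 0.05 there were 3 of 13 in each comparison, where 24.7% and 14.9% of all genes were. Pparg, a lipid-sensing nuclear receptor, was at 13.5 ± 5.74 in treated WT and 5.55 ± 3.32 CPM in treated WWP2-/- cells (log2 fold change -1.28 ± 0.38, adjusted P 0.0530). Ppara, the receptor that drives fatty acid oxidation in liver, was at 0.480 ± 0.203 and 0.470 ± 0.556 CPM. Ppargc1a, the coactivator PGC-1α, was at 1.41, 0.761, 1.46, 0.687 and 0.694 CPM in treated WT and 1.15, 2.51, 0.282, 4.29 and 5.004 CPM in treated WWP2-/- libraries, with a log2 fold change of 1.40 ± 0.70 (adjusted P 0.224). The 3 WWP2-/- libraries above all WT libraries were replicates 2, 4 and 5, which had 858, 3252 and 2367 CPM of macrophage markers and 257, 399 and 471 CPM of tubular markers, against at most 278 and 98.2 CPM in replicates 1 and 3. The part of these cells in the level of Ppargc1a was not tested.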

How the data were processed

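Poly-A RNA of 20 libraries (4 groups of 5) had been sequenced in pairs of reads by the authors, aligned with STAR to the mouse genome GRCm38 and counted over exons with featureCounts. The deposited table holds raw counts per gene, not normalised by the authors. The strand setting and the handling of reads in overlapping genes are not given in the sources used here. The filter of the study was used, a minimum of 5 counts reached in 5 or more libraries, which kept 20407 genes (of 51826) and 99.98% of counts. In R 4.3.3, edgeR 4.0.16 was run with TMM scaling, 1 dispersion fit over all groups and quasi-likelihood tests of 5 contrasts, with Benjamini-Hochberg adjustment over all genes kept and a threshold of 0.05. DESeq2 1.42.0, the authors' tool, was run as an alternative. CPM use TMM library sizes, and CPM per kb divide by the union of annotated exons, so counts and not transcripts set the precision. Gene IDs were named from the annotation (51633 of 51826). Fits were first tested on simulated data.

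All 33 genes are described, in the order of their roles. The genes, the other lists of genes and the markers were chosen with earlier results of these data known, so their directions are no independent evidence. A few genes of the other lists are not reported here. Alternatives were DESeq2 size factors, no filter, at least 10 counts in every library, the DESeq2 test, only the groups compared, the replicate block, a covariate for Xist, leaving out single libraries, and for the organelle contrast other memberships or a median. Leaving out the 2 libraries low in Acta2, and the macrophage or tubular markers as a covariate, were added after seeing the data. The organelle means use log2 CPM with a pseudocount of about 2 on the scale of counts, not of CPM, and carry no test. Exact permutation tests are two-sided, and 5 against 5 cannot give a P below 0.00794.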

Additional observations from a re-analysis of the deposited data

Results flagged for a closer look

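In 13 of 132 sets of 5 libraries (33 genes in 4 groups), the highest or lowest library stood apart from its group, with a gap to its nearest neighbour above 0.71 of the group's range. For independent, normally distributed values, about 1 in 20 sets has such a gap. The 132 sets share the same libraries and are not independent, so 13 of 132 cannot be set against that share. Among untreated WWP2-/- libraries, replicate 3, one of the libraries low in Acta2, stood apart in 4 genes, low in Acsl1 at 11.8 CPM and Hadha at 90.9 CPM, and high in Acsl3 at 53.2 CPM and Ehhadh at 3.89 CPM. Among treated WWP2-/- libraries, replicate 1, the other library low in Acta2, was low in Acox3 at 36.4 CPM. Replicate 3 of that group was low in Cpt1a at 67.2 CPM, replicate 2 high in Acadsb at 115 CPM and replicate 5 high in Etfb at 4.37 CPM. Among treated WT libraries, replicate 4 was high in 4 genes, Acadl at 101 CPM, Acadm at 101 CPM, Hsd17b10 at 70.2 CPM and Etfb at 10.3 CPM, and replicate 5 was high in Etfdh at 59.9 CPM. No untreated WT library stood apart in this way. The causes were not tested.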

How the results depend on the processing

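With TGFβ1, the 5 genes called between genotypes became 2 without a filter on low counts, 1 with only the groups compared, 3 with the replicate block and 1 with Xist as a covariate, and between 1 and 8 when 1 library was left out. It was 1 without treated WWP2-/- replicate 4 or treated WT replicate 2, 2 without treated WWP2-/- replicates 2 or 5 or treated WT replicates 1, 4 or 5, 3 without treated WWP2-/- replicate 3, 6 without treated WWP2-/- replicate 1 and 8 without treated WT replicate 3. The 5 called genes kept their signs in all of these fits. Over all 20407 genes, the fits with 1 library left out called 464 (without treated WT replicate 2) to 2702 (without treated WT replicate 3). Acsl4 was lost only with the groups compared alone. Without TGFβ1 the count rose from 0 to 1, Ehhadh, with the DESeq2 test, without the 2 libraries low in Acta2 and with macrophage markers as a covariate. The causes were not tested. Taking medians over the lists, the mitochondrial minus peroxisomal difference was -0.26 between treated genotypes and 0.18 between treated and untreated WT cells.

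Over all genes, the calls between treated genotypes were 1238, against 2672 with DESeq2, 790 without a filter, 569 with the groups compared alone, 670 with the replicate block, 544 with Xist, 3454 without the libraries low in Acta2 and 2424 with tubular markers. Between untreated genotypes they were 148, against 747, 1 with the groups compared alone, 1 with the block, 84 with Xist, 270 without the libraries low in Acta2, 896 with macrophage and 495 with tubular markers. Replicate numbers were not taken to pair the libraries, since in no pair of groups did all 5 same-numbered deviations correlate above 0.1. The correlations were -0.522 to 0.299 in WT (2 of 5 above 0.1), -0.185 to 0.283 in WWP2-/- (3 of 5), -0.0213 to 0.443 between untreated genotypes (4 of 5) and -0.417 to 0.126 between treated genotypes (1 of 5). A library correlated best with its own number in 1, 0, 3 and 0 of 5 cases.

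For 8 genes (Acsl4, Cpt1a, Acadsb, Acaa2, Decr1, Etfa, Etfb and Ehhadh), the fold changes that reversed were uncalled in the fit of all libraries. For TGFβ1 in WT cells, Acsl4 (0.0047) became -0.0015 with DESeq2 size factors, -0.00035 without a filter, -0.016 with at least 10 counts, -0.0015 with DESeq2, -0.0014 with the groups compared alone, -0.029 with the replicate block, -0.0026 without the libraries low in Acta2, -0.25 with macrophage and -0.11 with tubular markers. Etfa became -0.0059 with at least 10 counts, -0.012 with the block, -0.036 with macrophage and -0.024 with tubular markers. Ehhadh became -0.011 with at least 10 counts, -0.00020 without the libraries low in Acta2, -0.20 with macrophage and -0.092 with tubular markers, Etfb 0.14 and 0.042 with these markers and Acaa2 -0.019 with the block. For TGFβ1 in WWP2-/- cells, Cpt1a became -0.021 with the block and -0.029 without the libraries low in Acta2, and Acadsb 0.021 with size factors, 0.0023 without a filter, 0.011 with at least 10 counts, 0.021 with DESeq2, 0.0041 with the groups compared alone, 0.013 with macrophage and 0.0011 with tubular markers. Decr1 between untreated genotypes became 0.0014 without the libraries low in Acta2. With 1 library left out, fold changes that crossed 0 ran in WT cells from -0.068 to 0.095 for Acsl4, -0.10 to 0.19 for Acaa2, -0.089 to 0.14 for Etfa, -0.33 to 0.089 for Etfb and -0.083 to 0.078 for Ehhadh, in WWP2-/- cells from -0.048 to 0.15 for Cpt1a, -0.060 to 0.041 for Acadsb, -0.20 to 0.066 for Acaa2 and -0.11 to 0.00076 for Etfa, between untreated genotypes from -0.12 to 0.024 for Decr1, and in the interaction from -0.25 to 0.065 for Acaa2 and -0.21 to 0.027 for Etfa.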
